A study of Mus musculus with 4 samples.

Results

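The Rab genes encode the largest branch of the Ras superfamily of small GTPases and, with them, the proteins and noncoding transcripts that carry a Rab symbol. They were taken as all genes whose mouse symbol is Rab followed by a digit and that had a probe set assigned to that symbol alone. This gave 70 genes out of the 22180 genes on the array, from 78 probe sets. Of the 70, 58 were Rab GTPases and 12 were other Rab-named genes, and 66 were protein coding while 4 were long noncoding transcripts. *Rab4b*, *Rab11fip1* and *Rab11fip5* were present only on probe sets shared with another symbol and were therefore not among the 70.

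A Rab protein cycles between a GTP-bound form on a membrane and a GDP-bound form that is drawn into the cytosol. Guanine nucleotide exchange factors (GEFs) switch it on, GTPase-activating proteins (GAPs) switch it off, and effectors bind the active form to move, tether or fuse vesicles. Each Rab marks its own compartment, and in podocytes, the epithelial cells of the glomerular filter, endocytosis and recycling turn over proteins of the slit diaphragm such as nephrin. GAK, cyclin G-associated kinase, is the cofactor of HSC70 that strips clathrin from vesicles, a step just before incoming cargo reaches the Rab-marked early endosome.

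The study set glomeruli of *Gak*-KO mice against glomeruli of control mice, all on a C57BL/6 background and at 3 weeks of age. *Gak*-KO mice came from crosses of *Gak* fl/fl mice with *Pod-Cre-Rosa-Dtr* fl mice, in which Cre is driven in podocytes, and controls were Cre-negative littermates. Each group had 2 arrays, *Gak*-KO 1 and 2 and control 1 and 2, and each array held RNA pooled from 3 mice. Whole glomeruli were isolated with magnetic beads and a density gradient, so that RNA of the other cells, in which *Gak* was not deleted, is in every sample and fewer cells of a type cannot be told apart from less RNA per cell. The question asked here is whether the Rab transcripts differ between *Gak*-KO and control glomeruli. The values are log2 signals of the deposited table, and each array of one group was set against the array of the same number in the other.

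Some properties of the 4 arrays bear on every value below. The probe set for *Gak* read 8.64 and 8.39 in *Gak*-KO 1 and 2, against 8.25 and 8.35 in control 1 and 2. Both *Gak*-KO arrays thus lay above both controls, by 0.40 and 0.04 within the pairs, which is not the direction of a deletion. The gene is deleted in podocytes alone, and the labels are not borne out by this probe set. The reason for the direction was not tested. Arrays 1 are labelled male and arrays 2 female, but *Xist*, the transcript of the silenced X chromosome, read 9.61 and 9.21 in *Gak*-KO 1 and 2 and 9.69 and 8.55 in control 1 and 2, which is higher on the arrays labelled male in both groups, so the arrays are called by number. *Uty*, a gene of the Y chromosome, read 5.59 and 5.57 in *Gak*-KO 1 and 2 and 4.65 and 6.00 in control 1 and 2. It therefore differed between the groups within pairs, by 0.94 in the first and −0.43 in the second, and the part of sex in the Rab values was not tested. Podocyte markers were detected on all arrays, 6 of 8 genes being measured, and all 6 were higher on arrays 2. Markers of the proximal tubule were also bright, with summed linear signals of 25750 and 10608 in *Gak*-KO 1 and 2 and 27370 and 15709 in control 1 and 2. None of the 10 genes was higher on arrays 2 in both groups, while *Kap* was higher there in *Gak*-KO alone and *Slc22a6* in control alone. Array number and sex label cannot be told apart.

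No Rab gene passed the criterion for a changed gene, which few of all genes passed, and equality of the groups was not tested. With a *Z*-ratio (the difference of standardized signals in units of its spread over all genes) past the limit that the study's methods name in both pairs, 0 of 70 Rab genes were higher and 0 were lower. Over all genes, 0.509% were called higher and 0.234% lower by this criterion. limma, with the array number as a block, called 0 Rab genes after Benjamini-Hochberg adjustment, as it called 0% of all genes, and the lowest adjusted p was 0.833. At an unadjusted p under 0.05 it gave 1 Rab gene as higher, *Rab3b*, and 0 as lower, where the shares over all genes were 2.89% and 2.54%.

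The mean log2 changes of the 70 genes, *Gak*-KO minus control, lay between −0.31 and 0.50. Their median was −0.02 in the first pair and 0.01 in the second, and the median over all genes was 0 in each. The median size of the mean change, without its sign, was 0.0865 among the Rab genes and 0.111 over all genes. In both pairs 64 of the 70 Rab genes (91.4%) stayed within 0.5 of 0, and so did 87.4% of all genes. The 95% confidence intervals had a median half-width of 0.337, from 0.292 to 0.933. For 46 members the whole interval lay within 0.5 of 0, and for 69 within 1. With 2 arrays a group, an exact test of a single gene that ignored the pairing could not go below p = 0.333. Within the 2 pairs fewer relabellings are possible.

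The direction of change was compared between the pairs. The change was positive in both pairs for 16 Rab genes (22.9%) and negative in both for 10 (14.3%), whereas over all genes 22.3% were positive and 24.3% negative in both. This split depends on the scaling, since 12 Rab genes were positive and 21 negative in both pairs after quantile normalization, and 12 and 22 after each array was centred on its median. Over all genes these scalings gave 21.2% positive and 32.5% negative, and 18.6% positive and 36.5% negative. As deposited, the signs were opposite for 35 members (50%), against 39.7% of all genes, and 9 members had exactly equal values in a pair. The shares with opposite signs were 52.9% of members and 46.2% of all genes after quantile normalization. After centring they were 51.4% and 44.9%. Across the 70 genes the changes of the pairs correlated at r = −0.0998, against 0.130 across all genes, as a description only, since genes are not independent replicates. Both *Gak*-KO arrays lay above both controls for 3 Rab genes, *Rab8b*, *Rab44* and *Rab7*, and both lay below for *Rab3c* and *Rab39*. Over all genes these shares were 8.8% and 8.22%.

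**Figure D1:**
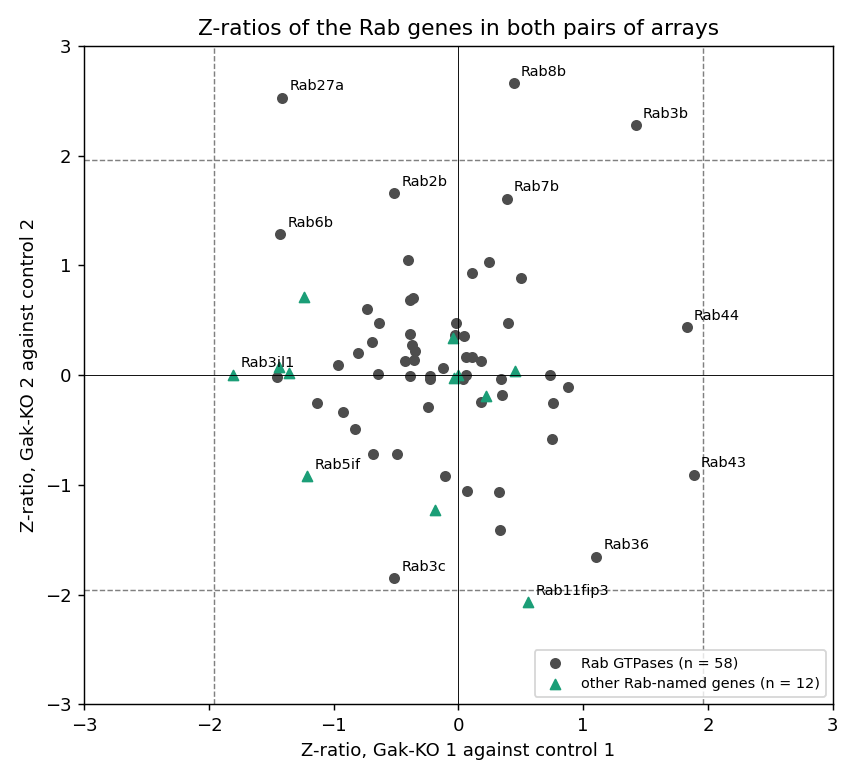
*Z*-ratios of the 70 Rab genes, *Gak*-KO against control, with the first pair of arrays on the horizontal axis and the second on the vertical axis, 1 point per gene (circles, GTPases, and triangles, other Rab-named genes). Broken lines mark the limit for a call in either direction, no gene is beyond them in the first pair, 4 are in the second, and none is in both.

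By single pairs, 0 Rab genes went beyond the limit in the first pair and 4 in the second. The shares over all genes, both directions together, were 5.27% in the first pair and 5.96% in the second. The 4 genes were *Rab8b*, *Rab27a* and *Rab3b*, with *Z*-ratios of 2.66, 2.53 and 2.28, and *Rab11fip3*, with −2.07. *Rab3b* and *Rab8b* were positive in the first pair as well, while *Rab27a* and *Rab11fip3* had the opposite sign there.

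Rab3 proteins and their relatives act at the last step of secretion, where vesicles dock at the plasma membrane, and this group held both the highest and the lowest mean change. *Rab3b*, a Rab3 isoform of epithelial and neuroendocrine cells, read 6.52 and 8.24 in *Gak*-KO 1 and 2, against 6.09 and 7.67 in control 1 and 2. It was higher in *Gak*-KO in both pairs, but both arrays 2 lay above both arrays 1, so the groups overlapped. Its mean change was 0.50 ± 0.10 (SE, 95% confidence interval 0.19 to 0.82), the one interval among the members that did not include 0, with an unadjusted p of 0.0138 in limma. After adjustment over all genes the p in limma was 0.833. A further probe set, shared by *Rab3b* and *8030443G20Rik*, read 3.14 and 2.77 in *Gak*-KO 1 and 2 and 3.08 and 2.88 in control 1 and 2, a mean change of −0.02.

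*Rab8b*, which with *Rab8a* directs vesicles from the Golgi to the cell surface, read 5.61 and 5.94 in *Gak*-KO 1 and 2, against 5.48 and 5.29 in control 1 and 2. Most of its mean change of 0.39 ± 0.17 came from the second pair, where the difference was 0.65, compared with 0.13 in the first. *Rab44*, a large Rab with additional calcium-binding and coiled-coil regions, read 4.97 and 5.03 in *Gak*-KO 1 and 2, against 4.43 and 4.93 in control 1 and 2. Here most of the mean change of 0.32 ± 0.15 came from the first pair.

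*Rab3c*, a Rab3 isoform of synaptic vesicles, stood at the other end, with 5.03 and 5.08 in *Gak*-KO 1 and 2, against 5.20 and 5.53 in control 1 and 2. Its mean change was −0.31 ± 0.13, with a 95% confidence interval of −0.69 to 0.07. A second probe set of *Rab3c* gave −0.01. *Rab3a*, the main Rab3 of neurons, read 5.78 and 6.15 in *Gak*-KO 1 and 2, against 6.13 and 6.21 in control 1 and 2, a mean change of −0.20 ± 0.12. Rab3 isoforms thus lay on both sides of 0, and the median over the 12 members for exocytosis and secretory granules was 0.06. None of these genes passed a test after adjustment.

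The sequences upstream of the start sites of *Rab3b*, *Rab8b* and *Rab3c* are shown because these members had the highest and the lowest mean changes. Each is the 250 bases before the start site listed first for the gene in RefSeq (GRCm38.p6), 5′ to 3′ on the strand of the gene, with CG pairs in capitals. *Rab3b* lies on the plus strand at chr4:108878820-108879069, *Rab8b* on the minus strand at chr9:66919706-66919955 and *Rab3c* on the minus strand at chr13:110280207-110280456.
Rab3b: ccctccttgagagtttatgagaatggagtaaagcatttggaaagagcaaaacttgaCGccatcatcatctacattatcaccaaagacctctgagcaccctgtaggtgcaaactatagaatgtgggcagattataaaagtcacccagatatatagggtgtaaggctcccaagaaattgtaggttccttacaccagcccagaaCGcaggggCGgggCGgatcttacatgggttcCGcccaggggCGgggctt
Rab8b: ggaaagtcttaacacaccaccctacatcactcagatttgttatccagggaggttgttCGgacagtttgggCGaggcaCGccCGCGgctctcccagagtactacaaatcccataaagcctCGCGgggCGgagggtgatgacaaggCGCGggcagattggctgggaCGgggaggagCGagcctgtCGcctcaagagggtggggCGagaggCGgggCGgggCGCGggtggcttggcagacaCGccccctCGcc
Rab3c: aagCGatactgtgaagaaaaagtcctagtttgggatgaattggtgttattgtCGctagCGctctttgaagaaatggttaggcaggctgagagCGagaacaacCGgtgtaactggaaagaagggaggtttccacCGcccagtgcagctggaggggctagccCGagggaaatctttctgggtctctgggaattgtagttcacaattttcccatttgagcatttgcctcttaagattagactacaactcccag
The *Rab3b* and *Rab3c* stretches held 6 and 7 CG pairs and were 48.8% and 47.6% G or C. That of *Rab8b* held 20 CG pairs and was 64.4% G or C.

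Such a sequence was matched for 57 of the 70 Rab genes. They held a median of 16 CG pairs (3 to 40) and were 60.8% G or C at the median, compared with 6 pairs and 52% over 27025 genes. These 27025 are all genes with such a sequence, neither limited to the array nor matched for gene type. The AP-1 motif TGANTCA, searched on both strands, was found in 1 of the 57 (1.75%), *Rab34*, and in 6.87% of the 27025. The NF-κB consensus, searched on both strands, was found in 1 (1.75%), *Rab28*, and in 3.75% of the 27025. *Rab28*, a Rab of photoreceptor and ciliary membranes, had a mean change of −0.09, and *Rab34*, involved in lysosome positioning and cilium formation, one of −0.06. A match is a run of letters and not a measured binding site.

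**Figure D2:**
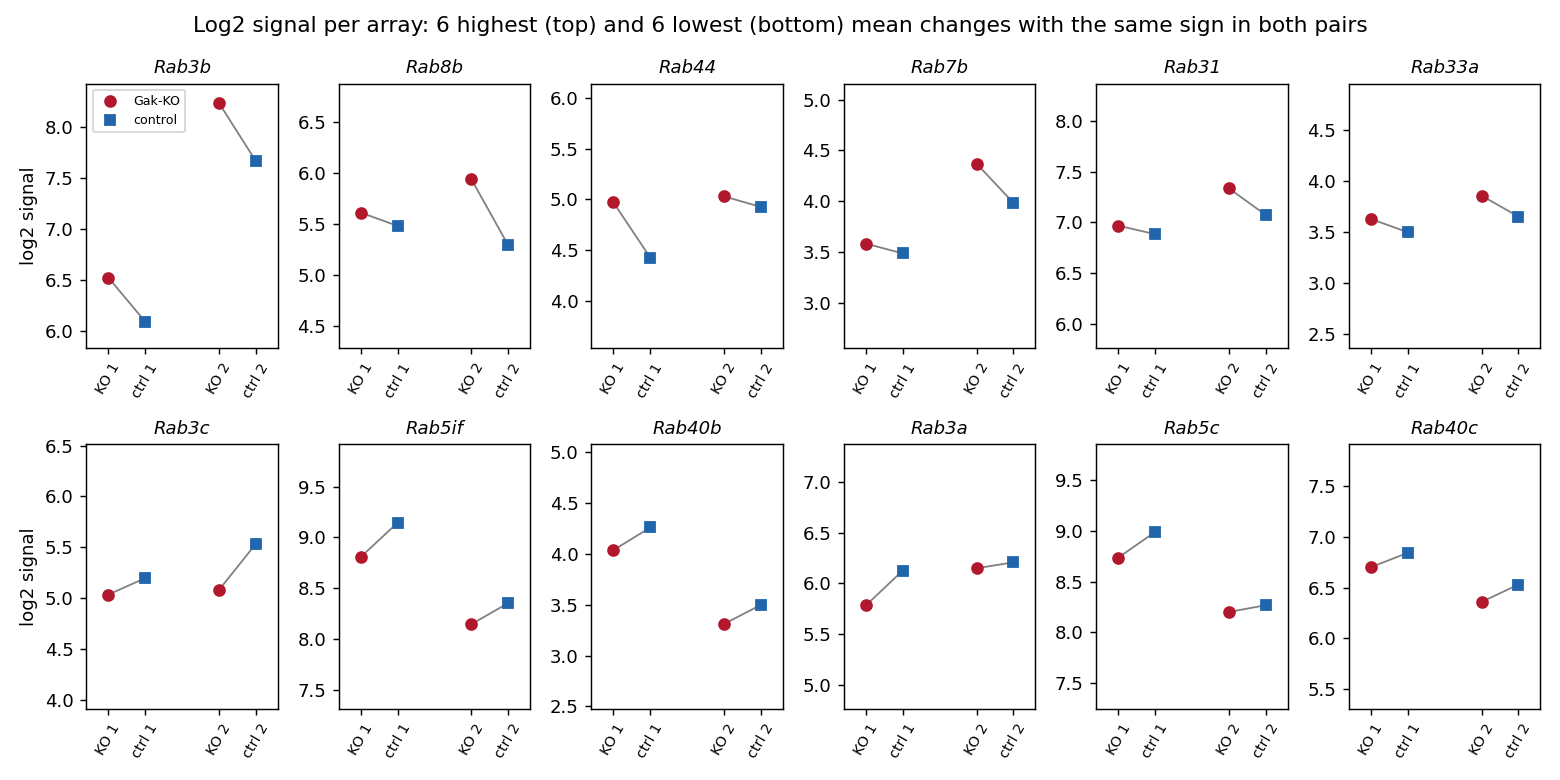
Deposited log2 signal of 12 Rab genes on each array, *Gak*-KO left and control right in each panel, with a line joining the arrays of the same number. The upper panels hold the 6 highest and the lower panels the 6 lowest mean changes among genes with the same sign in both pairs, and for *Rab3b* the step between arrays 1 and 2 is larger than the step between groups.

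The early endosome, the first compartment after clathrin uncoating, is marked by the 3 isoforms of Rab5. *Rab5a* read 8.05 and 8.39 in *Gak*-KO 1 and 2, against 7.99 and 8.34 in control 1 and 2. Its mean change was 0.05 ± 0.10, with a 95% confidence interval of −0.24 to 0.35. *Rab5b* read 8.37 and 8.40 in *Gak*-KO 1 and 2, against 8.45 and 8.33 in control 1 and 2, and its changes of −0.08 and 0.07 had opposite signs. *Rab5c* read 8.74 and 8.20 in *Gak*-KO 1 and 2, against 8.99 and 8.27 in control 1 and 2, a mean change of −0.16 ± 0.11. The *Rab5c* values on arrays 1 were above those on arrays 2 in both groups. *Rab31*, which carries cargo between the Golgi and endosomes, was positive in both pairs, with 6.97 and 7.33 in *Gak*-KO 1 and 2 against 6.88 and 7.07 in control 1 and 2. The median over the 7 early endosome members was 0.05.

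Recycling Rabs return internalized proteins to the surface, Rab4 by a fast route and Rab11 by a slow one. *Rab4a* read 4.68 and 5.01 in *Gak*-KO 1 and 2, against 4.66 and 4.78 in control 1 and 2, with a change of 0.02 in the first pair and 0.22 in the second. *Rab11a* read 7.02 and 6.96 in *Gak*-KO 1 and 2, against 7.07 and 6.96 in control 1 and 2. *Rab11b* read 10.004 and 9.83 in *Gak*-KO 1 and 2, against 9.91 and 9.78 in control 1 and 2. Their mean changes were −0.03 and 0.07, each with a standard error of 0.10. *Rab35*, which acts in endocytic recycling and on actin, read 7.22 and 7.20 in *Gak*-KO 1 and 2, against 7.11 and 7.24 in control 1 and 2. As deposited, 3 of the 9 recycling members were positive and 0 negative in both pairs, whereas 2 were positive and 3 negative after quantile normalization, and 2 and 2 after centring on the array medians. Their median mean change was 0.04.

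*Rab4b*, an isoform of the fast route, could be followed only on probe sets that it shares with other symbols. The one shared with *Mia* read 6.31 and 6.57 in *Gak*-KO 1 and 2, against 6.08 and 6.61 in control 1 and 2, a mean change of 0.10.

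*Rab7*, which governs the maturation of late endosomes and their fusion with lysosomes, had the highest signal of all members. It read 11.65 and 11.70 in *Gak*-KO 1 and 2, against 11.61 and 11.58 in control 1 and 2, so the groups did not overlap although the mean change was only 0.08 ± 0.10. *Rab7b*, a separate gene that acts from late endosomes to the Golgi, read 3.58 and 4.37 in *Gak*-KO 1 and 2, against 3.49 and 3.98 in control 1 and 2. Its mean change was 0.24 ± 0.13. *Rab39*, a Rab of late endosomes and autophagy, was at the lower end of the signal range, with 2.525 and 2.496 in *Gak*-KO 1 and 2 against 2.629 and 2.584 in control 1 and 2. *Rab36*, which positions late endosomes and lysosomes, read 5.36 and 5.08 in *Gak*-KO 1 and 2 and 5.04 and 5.48 in control 1 and 2, with changes of 0.33 and −0.40. The median over the 12 late endosome, lysosome and autophagy members was −0.05.

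The Rabs of the endoplasmic reticulum and the Golgi had a median change of −0.10 in the first pair and 0.06 in the second, and 8 of the 11 had opposite signs. *Rab1a*, for transport out of the endoplasmic reticulum, read 10.70 and 10.49 in *Gak*-KO 1 and 2, against 10.76 and 10.43 in control 1 and 2. *Rab2a*, which acts in the same part of the pathway, read 10.18 and 10.26 in *Gak*-KO 1 and 2, against 10.26 and 10.20 in control 1 and 2. Both had a mean change within 0.02 of 0 and opposite signs in the pairs. *Rab33a*, a Golgi Rab, was positive in both pairs by 0.13 and 0.21, at a low signal of 3.63 and 3.86 in *Gak*-KO 1 and 2 against 3.50 and 3.65 in control 1 and 2. Opposite changes were larger for *Rab6b* (−0.42 and 0.32), a Golgi Rab best known from brain, and for *Rab43* (0.57 and −0.22), a Golgi Rab. *Rab6b* read 6.93 and 7.39 in *Gak*-KO 1 and 2 and 7.35 and 7.06 in control 1 and 2. *Rab43* read 5.76 and 5.38 in *Gak*-KO 1 and 2 and 5.20 and 5.60 in control 1 and 2.

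*Rab40b* and *Rab40c* carry a SOCS box through which they join ubiquitin ligases. *Rab40b* read 4.04 and 3.31 in *Gak*-KO 1 and 2, against 4.26 and 3.50 in control 1 and 2. *Rab40c* read 6.70 and 6.36 in *Gak*-KO 1 and 2, against 6.84 and 6.53 in control 1 and 2. Both were negative in both pairs by similar amounts, with mean changes of −0.21 and −0.16 and a standard error of 0.10 each. In both genes the difference between array numbers was larger than that between groups.

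**Figure D3:**
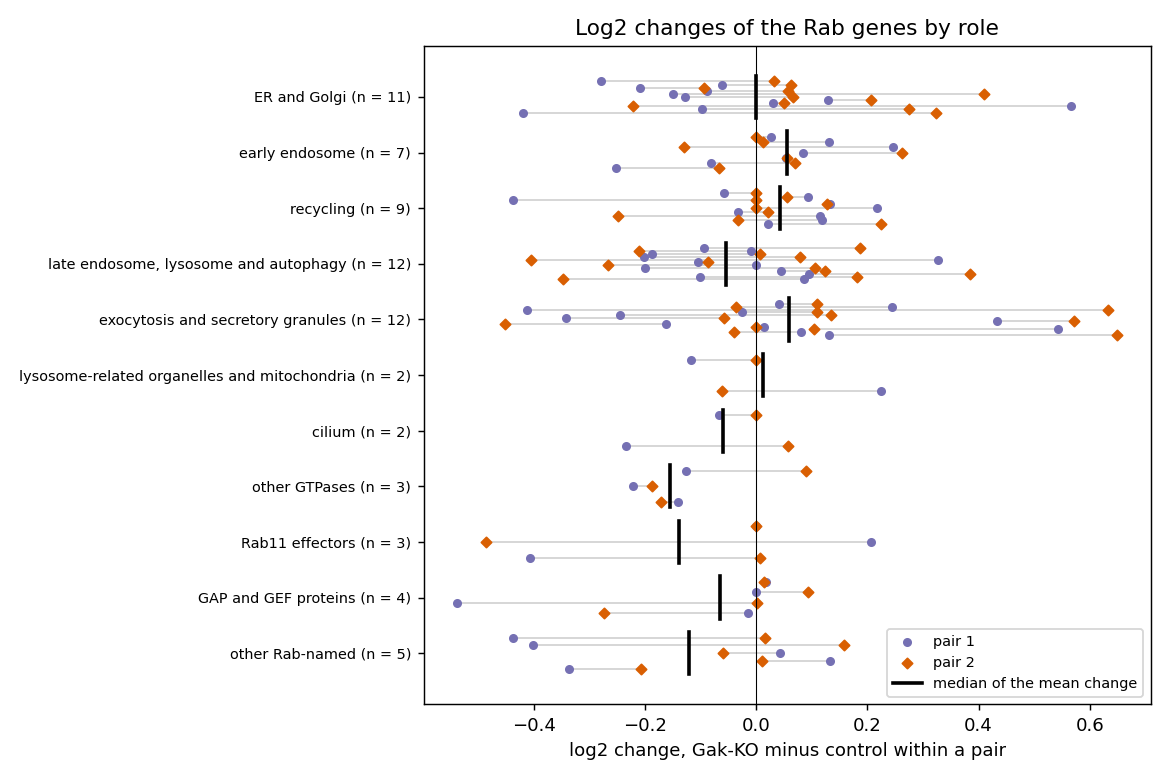
Log2 change, *Gak*-KO minus control, of each Rab gene in the first pair (circles) and the second pair (diamonds) of arrays, joined by a line for each gene and grouped by role, with a black bar at the median of the mean changes of a group. Many lines cross 0, and the widest range of values is in the exocytosis group.

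The median mean change was −0.13 for the 12 Rab-named genes that are not GTPases and 0.00 for the 58 GTPases, but within the single pairs the 12 genes had medians of −0.01 and 0.00, against −0.03 and 0.04 for the GTPases. The difference was not tested. 3 of the 12 are Rab11 effectors, adaptors that link Rab11 to its carriers. Of these, *Rab11fip3* read 10.08 and 8.55 in *Gak*-KO 1 and 2 and 9.87 and 9.04 in control 1 and 2, with changes of 0.21 and −0.49. *Rab11fip2* had the same value in both groups within each pair. *Rab3il1*, an exchange factor that bears a Rab3 name, read 6.30 and 5.65 in *Gak*-KO 1 and 2 and 6.84 and 5.65 in control 1 and 2, so the change was −0.54 in the first pair and 0.00 in the second. *Rab3gap1* and *Rab3gap2*, the subunits of the Rab3 GAP complex, had mean changes of 0.02 and 0.05.

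*Rab5if*, whose product is an assembly factor of membrane and mitochondrial complexes and not a GTPase, read 8.81 and 8.15 in *Gak*-KO 1 and 2, against 9.15 and 8.36 in control 1 and 2. Its changes of −0.34 and −0.21 gave a mean of −0.27 ± 0.10, with a 95% confidence interval of −0.58 to 0.04. The noncoding *Rab11fip4os1* read 2.79 and 2.91 in *Gak*-KO 1 and 2 and 3.19 and 2.75 in control 1 and 2. *Rab11fip4os2* read 3.20 and 3.22 in *Gak*-KO 1 and 2 and 3.16 and 3.28 in control 1 and 2. They and *Rab39* had the lowest mean signals of the 70 genes.

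Most Rab genes, like most of all genes, differed more between array numbers than between the groups. For 56 of the 70 genes (80%) the difference between arrays 2 and 1, averaged over the groups, was larger than the difference between *Gak*-KO and control, and the share over all genes was 73.9%. The median size of the array-number difference was 0.216 among the Rab genes and 0.2525 over all genes. Values sorted by size differed on average by 0.0411 between the arrays of the first pair and by 0.0214 in the second pair. Between the 2 control arrays they differed by 0.143. The part of scaling in the array-number differences was not tested. *Rab3b* was 1.65 higher on arrays 2, *Rab27a* 0.87, *Rab27b* 0.77, *Rab30* 0.70 and *Rab7b* 0.64. The exocytosis group as a whole had a median size of 0.207, close to that of all members. *Rab42*, of the lysosomal group, stood at −1.26, *Rab11fip3* at −1.18, *Rab3il1* at −0.92, *Rab40b* at −0.74 and *Rab5if* at −0.73.

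Members higher on arrays 2 tended to have the more positive change in *Gak*-KO. Across the 70 genes the array-number difference and the group change correlated at r = 0.558 (rho = 0.507), and at r = 0.456 (rho = 0.486) across the 69 without *Rab3b*. Across all genes r was 0.214 and rho 0.212. These correlations describe 4 arrays that share their values on both axes, over genes that are not independent replicates.

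**Figure D4:**
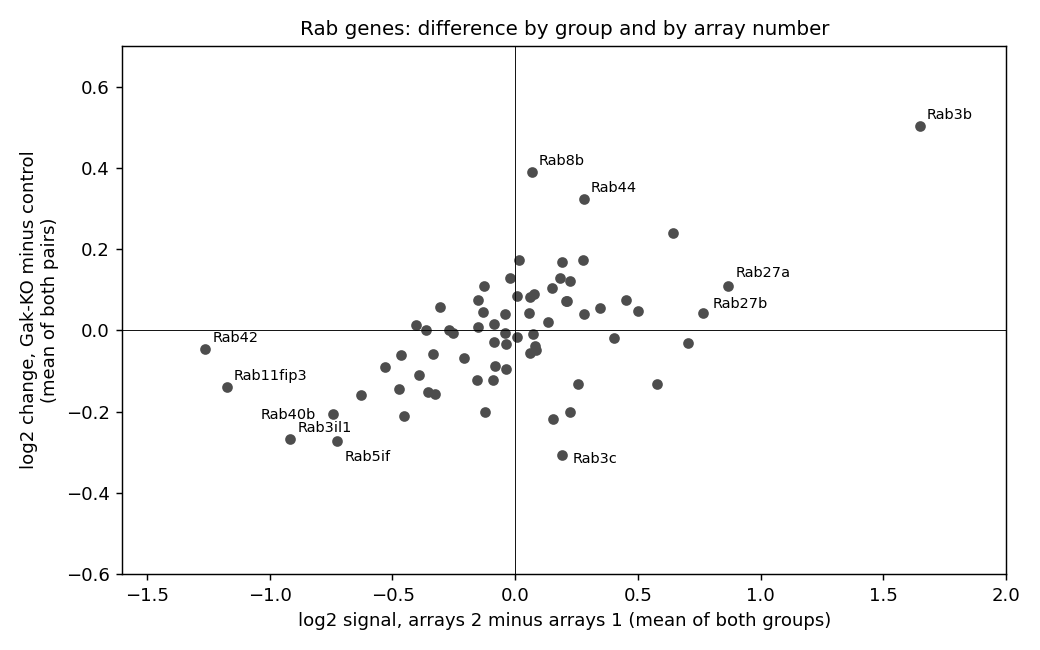
Log2 change of the 70 Rab genes between *Gak*-KO and control (vertical axis, mean of both pairs) against their difference between arrays 2 and arrays 1 (horizontal axis, mean of both groups), 1 point per gene. *Rab3b* is at the upper right, with 0.50 by group and 1.65 by array number, and *Rab3il1*, *Rab5if* and *Rab40b* are at the lower left.

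Cell type markers moved with the array number as well. Podocyte marker genes were higher on arrays 2 by a median of 1.10, and proximal tubule genes stood at −1.15. Between the groups, the podocyte median change was −0.21 in the first pair and 0.19 in the second, with 0 genes positive and 1 negative in both pairs. Their summed linear signals were 1821 and 4523 in *Gak*-KO 1 and 2 and 2064 and 3776 in control 1 and 2. The medians were −0.27 and 0.29 for 7 endothelial genes, of which 2 were positive and 0 negative in both pairs. For 6 genes of the thick limb and distal nephron they were −0.35 and 0.07, with 2 positive and 3 negative in both pairs. For 7 genes of mesangium and smooth muscle they were 0.40 and 0.30, with 5 positive and 1 negative in both pairs. *Rab27a*, which docks secretory granules and lysosome-related organelles, had changes of −0.41 and 0.63 and was 1 of the 35 Rab genes with opposite signs. It read 7.10 and 8.50 in *Gak*-KO 1 and 2 and 7.52 and 7.86 in control 1 and 2. The proximal tubule median change was −0.13 in the first pair and −0.76 in the second, with 0 of the 10 genes positive and 7 negative in both pairs. Macrophage markers, of which 9 were measured, had median changes of 0.13 and 0.40, with 5 positive and 1 negative in both pairs. Their summed signals were low, at 301 and 436 in *Gak*-KO 1 and 2, against 265 and 292 in control 1 and 2. By the *Z*-ratio criterion that no Rab gene passed, *Kap* and *Hao2* of the proximal tubule and *Slc12a1* of the thick limb were called lower. *Tagln* of smooth muscle and the macrophage genes *Cd68* and *Mpeg1* were called higher. Over all genes 0.234% were called lower and 0.509% higher. The part of cell composition in the Rab values was not tested.

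Genes of the Rab cycle outside the family gave a similar picture. Of 135 listed GEFs, GAPs, effectors, escort and prenylation proteins and Rab-like proteins, 128 were measured, and by the *Z*-ratio 0 were higher and 0 lower in both pairs, where all genes had 0.509% and 0.234%. The change was positive in both pairs for 32 (25%) and negative in both for 23 (18%), against 22.3% and 24.3% of all genes, with a median mean change of 0.03. At an unadjusted p under 0.05 limma gave 4 as higher (3.12%) and 0 as lower, where the shares over all genes were 2.89% and 2.54%, and 0 after adjustment. The 4 were *Tuft1*, *Micall2*, *Sytl5* and *Rin1*, of which *Rin1* was named after its values were seen. Among 46 effectors 14 (30.4%) were positive and 3 (6.52%) negative in both pairs, but 13 and 8 after quantile normalization and 11 and 7 after centring. Among 35 GAPs 6 (17.1%) were positive and 9 (25.7%) negative.

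*Tuft1*, tuftelin, read 6.57 and 6.11 in *Gak*-KO 1 and 2, against 5.99 and 5.76 in control 1 and 2. *Micall2*, which binds Rab13 and related Rabs at cell junctions, read 4.69 and 4.73 in *Gak*-KO 1 and 2, against 4.21 and 4.32 in control 1 and 2. For both genes the *Gak*-KO arrays lay above both controls, with mean changes of 0.46 ± 0.11 and 0.44 ± 0.10. The same held for 14 of the 128 Rab cycle genes (10.9%), and 5 (3.91%) had both *Gak*-KO arrays below both controls. Over all genes these shares were 8.8% and 8.22%. *Sytl5*, a synaptotagmin-like effector of Rab27, read 5.13 and 5.95 in *Gak*-KO 1 and 2, against 4.82 and 5.39 in control 1 and 2. *Rin1*, an exchange factor for Rab5, had a mean change of 0.33 ± 0.10.

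At the other end, *Tbc1d24*, a protein with the TBC domain of Rab GAPs, read 5.76 and 6.20 in *Gak*-KO 1 and 2, against 6.19 and 6.42 in control 1 and 2, a mean change of −0.33 ± 0.11. *Tbc1d10a*, a GAP for Rab27a and Rab35, had changes of −0.04 and −0.61. *Ift27*, a Rab-like GTPase of intraflagellar transport, had changes of −0.61 and −0.03. The adjusted p in limma was 0.833 for *Tuft1*, *Micall2*, *Sytl5* and *Rin1*.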

How the data were processed

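The deposited table holds log2 signals of 4 arrays, made by the authors with RMA according to the submitters' processing notes, which also name limma. Versions and genome build are not given in the sources used here, and whether all arrays were normalized together is not stated. The array type in the methods differs from that of the probe set identifiers. Array medians were 4.32 and 4.14 in *Gak*-KO 1 and 2 and 4.28 and 4.13 in control 1 and 2.

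Of 41345 probe sets, 23521 with 1 gene symbol were used, and the probe set with the highest mean signal stood for a gene. 7 Rab genes had several. Cross-hybridization between similar Rab genes was not tested. *Z*-ratios were computed within pairs over all genes at the limit of 1.96 that the methods name. Log2 changes, standard errors and p values came from limma 3.58.1 (R 4.3.3) over 22180 genes, with a block for array number. Variances were moderated, which added 2.24 degrees of freedom to the 1 left in the residuals, and p was adjusted by Benjamini-Hochberg with a threshold of 0.05. The scripts were tested on simulated data. Figures were drawn with matplotlib 3.10.9.

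The pairing follows the array numbers, since the study lists 2 batches. Arrays that share a number deviated together from the mean of their group (r = 0.694 over all genes). Identical values stood in *Gak*-KO 1 and control 1 for 1421 probe sets, in *Gak*-KO 2 and control 2 for 3735, and in arrays of unlike number for 0. P values in limma rest on how far the changes of the 2 pairs of pools differed, moderated by the variances of all genes. They do not measure the spread between single mice.

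The members, the lists and the rule for named genes were chosen with earlier results of these data known. The rule takes the 6 highest and 6 lowest mean changes with the same sign in both pairs, the Rab4, Rab5, Rab7, Rab11 and Rab35 genes, the 3 highest and 3 lowest signals, the 4 strongest opposite changes, and 3 Rab cycle genes in each direction. It names 34 genes. *Rab27b*, *Rab28*, *Rab30*, *Rab34*, *Rab42* and the Rab-named regulators other than *Rab5if* and the *Rab11fip4* antisense transcripts were named after their values were seen. Alternatives changed the normalization, the choice of probe set, the genes used for the *Z* scores, the filter on low signal, the scale and limit of the *Z*-ratio, the prior in limma, the pairing and the arrays used. The alternatives for the Rab cycle genes and the scalings by role group were chosen after seeing the data.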

Additional observations from a re-analysis of the deposited data

Results flagged for a closer look

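Of the 28 Rab genes taken by the rule for named genes, 11 had changes of opposite sign in the pairs of arrays. *Rab27a*, *Rab6b*, *Rab36* and *Rab43* were taken for that reason. Genes named outside the rule, such as *Rab11fip3*, are not among the 11. Each value that follows is the change in the second pair minus that in the first, on the log2 scale, and none of these differences was tested. The largest of the 11 was that of *Rab27a*, at 1.05, which had 0.63 in the second pair and −0.41 in the first. It was 0.743 for *Rab6b*, −0.732 for *Rab36* and −0.787 for *Rab43*. *Rab11fip4os1* gave 0.560 at a low signal, and *Rab11fip4os2* gave −0.102. Among the endosomal Rabs it was 0.152 for *Rab5b*, 0.0578 for *Rab11a* and −0.152 for *Rab35*. It was 0.124 for *Rab1a* and 0.147 for *Rab2a*. 35 of all 70 Rab genes had opposite signs.

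A probe set outside the comparisons, shared by *Mir3101*, *Rab4b* and *Mia*, read 4.25 and 4.42 in *Gak*-KO 1 and 2, against 4.04 and 3.64 in control 1 and 2. Its mean change was 0.497, with 0.21 in the first pair and 0.78 in the second. It was picked, among the probe sets that a Rab gene shares with other symbols, because both *Gak*-KO arrays lay above both controls. Over all genes 8.8% had both *Gak*-KO arrays above both controls. The signal cannot be assigned to one of the 3 genes.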

How the results depend on the processing

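With no replicate block, that is without the pairing of array numbers, 1 Rab gene passed the *Z*-ratio limit as higher, *Rab3b*, and 3 Rab cycle genes did, *Tuft1*, *Micall2* and *Sytl5*. These are 1.43% and 2.34%, against 2.92% of all genes, and the unadjusted p of *Rab3b* in limma was then 0.534. The median change of the Rab genes stayed at −0.00575. A robust scale of the *Z*-ratio called 2 Rab cycle genes higher (1.56%, all genes 1.08%), *Tuft1* and *Micall2*. Quantile normalization and centring of each array on its median gave 21 and 22 Rab genes with a negative change in both pairs, against 10 as deposited, and median changes of −0.0305 and −0.0317. They turned *Rab1a* to −0.0169 and −0.0259, quantile normalization turned *Rab11fip4os2* to 0.0049, and the mean of all probe sets turned *Rab6b* to 0.0386. No other named gene turned outside the leave-out settings.

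Leaving out either pair left a single difference with no test. Counts of Rab genes past the limit then ranged from 0 to 3 higher and from 0 to 1 lower. Of all genes, 3.01% were higher and 2.96% lower without arrays 1, and 2.88% and 2.39% without arrays 2. Without arrays 1 these were *Rab3b*, *Rab8b* and *Rab27a*, and *Rab11fip3*. For Rab cycle genes they were 1 and 1 higher and from 2 to 3 lower. These were *Sytl5*, with *Hps1* and *Tbc1d10a* lower, without arrays 1, and *Als2cl*, with *Ift27*, *Rabl3* and *Tbc1d7* lower, without arrays 2. The median change ranged from −0.035 without control 2 to 0.0324 without control 1. Signs turned for the 11 flagged genes with opposite signs in the pairs. This had to follow, because leaving out a pair leaves the change of the other. Their values ran from −0.0819 to 0.0701 for *Rab5b*, −0.0575 to 0.000375 for *Rab11a* and −0.0338 to 0.119 for *Rab35*. They ran from −0.0620 to 0.0621 for *Rab1a* and −0.0895 to 0.0579 for *Rab2a*. For the noncoding genes they ran from −0.40 to 0.16 for *Rab11fip4os1* and −0.0595 to 0.0420 for *Rab11fip4os2*. The others were −0.41 to 0.63 for *Rab27a*, −0.42 to 0.32 for *Rab6b*, −0.40 to 0.33 for *Rab36* and −0.22 to 0.57 for *Rab43*. The cause of the differences between the pairs was not tested. Over the named genes and the settings with a test, adjusted p in limma ran from 0.622 to 1. The number of arrays limits the precision, and 5 Rab genes were below the 30th percentile of signal.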
